A study of Mus musculus with 12 samples.

Results

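The genes described here are 10 heat shock proteins and their partners in mouse lung, Hspa1a, Hspa1b, Hspa8, Hsph1, Dnajb1, Bag3, Hsp90aa1, Hspb1, Hspe1 and Hspd1. They were taken by gene symbol from a table of read counts over 49585 genes, and each symbol matched 1 gene. RNA from whole lung was sequenced in 12 libraries from C57BL/6J mice that all carried a subcutaneous tumour of MO4 cells, a melanoma line. The 4 groups have 3 libraries each. Young mice (2 months old) received an antibody against PD-1, the T cell checkpoint receptor. Aged mice (22 months old) received either an isotype-matched rat control antibody, the anti-PD-1 antibody, or the anti-PD-1 antibody plus one that binds the interleukin-21 receptor, called the combination below. Injections were on days 3, 7 and 11 after inoculation, which the labels state for anti-PD-1 and the control antibody. No group of young mice with the control antibody, and no lung without a tumour, was analysed here, so age is compared only under anti-PD-1.

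Heat shock proteins are molecular chaperones. HSP70 proteins bind exposed stretches of unfolded proteins in a cycle driven by ATP: J-domain proteins bring the client and trigger ATP hydrolysis, and exchange factors of the HSP110 and BAG families let it go. HSP90 takes over clients near their folded state, small heat shock proteins hold unfolded proteins until HSP70 can work on them, and the chaperonin of HSPD1 and HSPE1 folds proteins inside mitochondria. Some of these genes are made at all times, while others are switched on within minutes by heat shock factor 1 (HSF1), which is held inactive by chaperones in unstressed cells and, as a trimer, binds repeats of a 5-base unit called heat shock elements. Handling, warming and mincing of a tissue can also start this response, so its transcripts are sensitive to how and when an organ is taken.

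The promoters are shown first because repeats of this kind are what HSF1 binds. RefSeq windows from 250 bases before to 50 bases after a transcript start (build GRCm38.p6) were matched for 8 of the 10 genes, in 11 windows. A pair of units in opposite directions reads GAANNTTC (head to head) or TTCNNGAA (tail to tail), each of which is the same on both strands. One or the other was present in 15.1% of all 32851 windows and in 8 of these 11. The 8 belong to 7 of the 8 genes, Dnajb1 being the gene without an exact match. Only exact matches inside these windows were counted. A run of 3 alternating units, which contains both pairs, was present in 0.603% of all windows and in 4 of these 11, from Hsph1, Hspe1 and Hspd1. The stretches below run 5′ to 3′ on the strand of the gene, with the matching letters in capitals and up to 15 bases on either side (6 for Hspe1 and Hspd1).
Hspa1a and Hspa1b: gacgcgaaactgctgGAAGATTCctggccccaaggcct
Hsph1, before the start: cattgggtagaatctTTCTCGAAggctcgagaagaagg
Hsph1, after the start: gtaaaatgctgcagaTTCTGGAAAGTTCt
Bag3: ctctggatgggaccaGAAGTTTC
Hspb1: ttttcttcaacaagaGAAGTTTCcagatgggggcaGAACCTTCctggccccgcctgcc
Hspe1: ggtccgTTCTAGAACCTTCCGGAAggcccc
Hspd1: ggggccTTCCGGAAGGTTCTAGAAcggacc

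The Hspa1a stretch lies at chr17:34972238-34972275 and the identical Hspa1b stretch at chr17:34959320-34959357, both on the minus strand and from 119 to 82 bases before the start. Over their whole windows the 2 genes are the same at 296 of 300 bases. The Hsph1 stretches lie at chr5:149636347-149636384 and chr5:149636287-149636315 on the minus strand, the Bag3 stretch at chr7:128523610-128523632 on the plus strand and the Hspb1 stretch at chr5:135887787-135887844 on the plus strand. That of Bag3 is after the start, at bases 28 to 50 counted from it, where the window ends. That of Hspb1 runs from 132 to 75 bases before the start. The stretch of Hspe1 and Hspd1 is 1 piece of DNA, chr1:55088053-55088082, read on the plus strand for Hspe1 and on the minus strand for Hspd1. These genes lie on opposite strands and overlap over 112 exon bases at their 5′ ends. The stretch is before the start of Hspe1 but inside the annotated span of Hspd1, where it precedes only the start of the second of its 2 windows. The first window of Hspd1 holds none of these pairs. The TATAAA box was in none of these genes' windows (13.6% of all windows). CCAAT was in 6 of the 11 windows, from 5 genes (37.4% of all windows). A match says only that these letters are there, since binding was not measured.

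Totals ran from 16021877 to 22058620 counts per library. All 10 genes passed the filter on low counts that left 18556 genes to test, with 14524 (Hsph1) to 312755 (Hspa8) counts over the 12 libraries. Levels are CPM, counts relative to the library total after scaling for composition, and differences are log2 fold changes with their standard errors (SE), from a single edgeR quasi-likelihood fit. A difference is called when its Benjamini-Hochberg p, adjusted over all 18556 genes, is under 0.05. Nothing says whether the 3 libraries of a group came from separate mice, so the p-values measure the spread between these libraries. The 3 comparisons that involve aged anti-PD-1 share its libraries and are not independent of one another. The lung label fits the markers measured, with the surfactant gene Sftpc at group means of 9876 to 16970 CPM and the club cell gene Scgb1a1 at 14540 to 21920. In whole tissue, fewer cells of a type and less RNA per cell cannot be told apart.

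Levels can be compared between genes only per length of exon. On CPM per kilobase, the medians over the 12 libraries were 326 for Hspa8, 199.9 for Hspb1 and 141 for Hsp90aa1. No library of these 3 genes was below 110.2, and no library of the other 7 was above 106.5. Within the 3, the range of Hspb1 overlapped those of both others. Medians of the rest were 55.1 for Hspe1, 36.03 for Hspd1, 31.7 for Bag3, 31.5 for Hspa1a, 28.2 for Hspa1b, 23.7 for Dnajb1 and 7.61 for Hsph1. Hspe1 (lowest library 48.9) stayed above Hspd1 (highest 41.4), Bag3 and Dnajb1, and Hsph1 (highest 16.8) below them, while the ranges of Hspd1, Bag3 and Dnajb1 overlapped one another. The wide ranges of Hspa1a and Hspa1b overlapped those of all 5 of these genes, so the pair has no place in that order. The inducible HSP70 pair varied most from library to library: the highest library was 9.64 times the lowest for Hspa1a and 11.3 times for Hspa1b. Hsph1 followed at 3.25 and Hspb1 at 2.31, while the other 6 genes stayed between 1.27 (Hspd1) and 1.84 (Dnajb1).

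**Figure D1:**
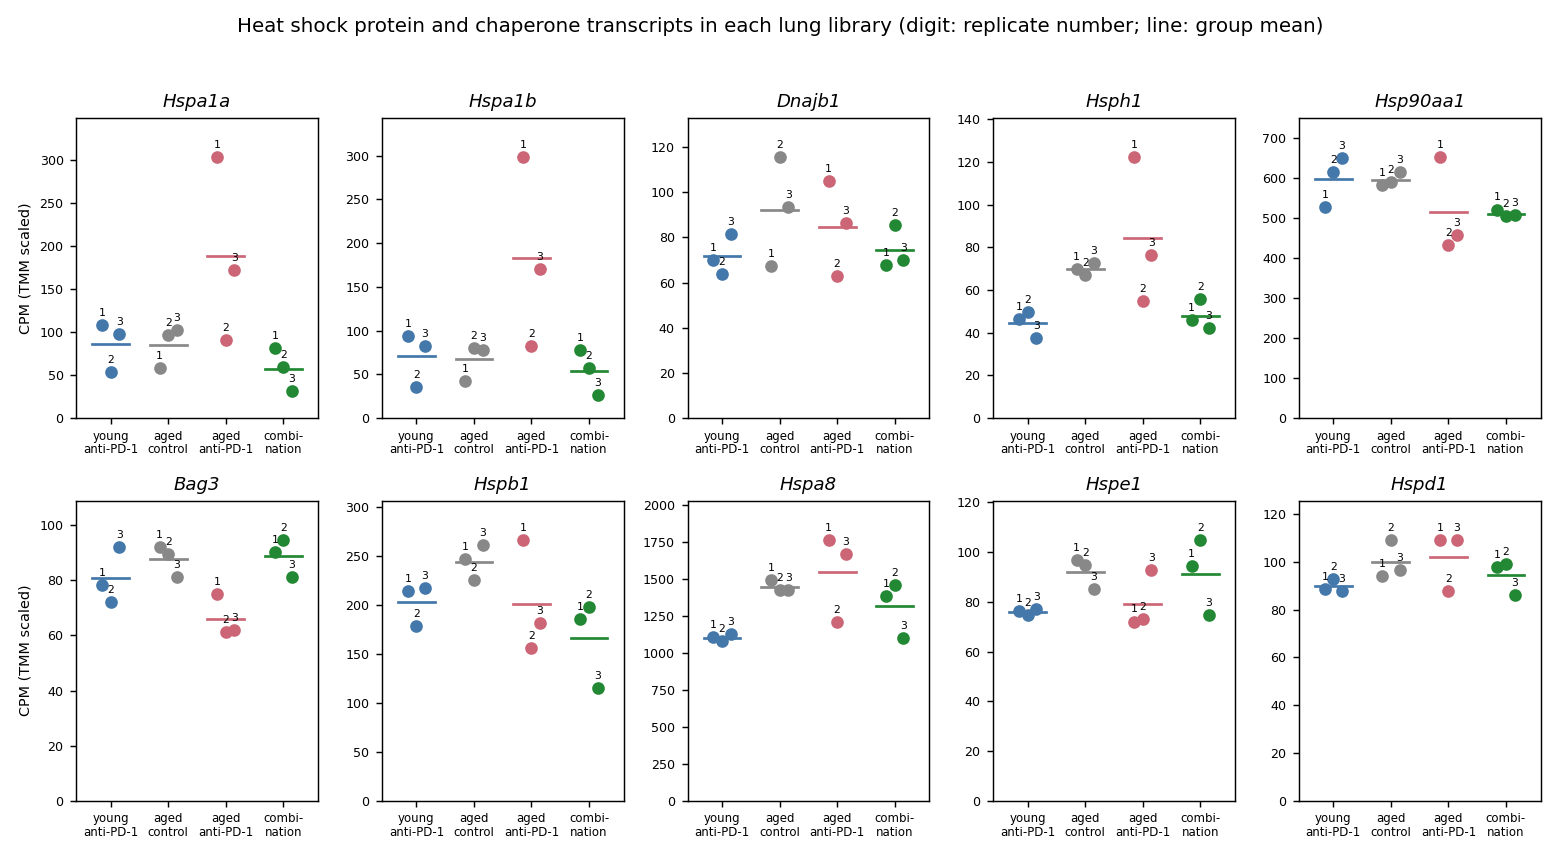
CPM of each of the 10 genes (vertical axes, from 0) in every library, grouped as young anti-PD-1, aged control, aged anti-PD-1 and combination; digits are the replicate numbers and the lines are group means. Hspa1a and Hspa1b reached 304 and 299 CPM in aged anti-PD-1 library 1, while Hspd1 stayed between 86.2 and 109 CPM in all 12.

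Between aged and young mice under anti-PD-1, Hsph1 and Hspa8 were higher in aged lungs, by 1.90-fold and 1.40-fold. No member was called lower, and the other 8 were not called. That is 2 of 10 members called, against 15.3% of all genes tested (8.09% higher and 7.16% lower in aged). The same 2 were those whose 3 aged libraries all stood above the 3 young ones, as 19.7% of all genes did, and the median log2 fold change of the 10 genes was 0.21, against -0.01 over all genes.

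Between aged anti-PD-1 and aged control, Bag3 was lower under anti-PD-1 by 1.33-fold and was the 1 member of 10 called, against 10.9% of all genes (5.34% higher and 5.58% lower). Hspa1a and Hspa1b had the widest differences, 2.21-fold and 2.74-fold higher under anti-PD-1, and were not called. The members' median log2 fold change was -0.04 and that of all genes -0.02. The ranges of 2 members did not overlap, Hspa1b being higher and Bag3 lower, against 32.5% of all genes.

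Between the combination and anti-PD-1 alone in aged mice, Bag3 was higher and Hsph1 lower in the combination, 2 of 10 members against 9.02% of all genes (4.67% higher and 4.35% lower). Hspa1a and Hspa1b were 3.28-fold and 3.40-fold lower, just short of a call. The median over the members was -0.21, against -0.01 over all genes, and 2 of 10 log2 fold changes were above 0. Bag3 was wholly above and Hspa1a and Hspa1b wholly below the libraries of anti-PD-1 alone, 3 of 10 members against 32.2% of all genes.

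Between the combination and aged control, edgeR called none of the 10 members and 0 of 18556 genes (0%). At an unadjusted p under 0.05 there were 2 members (Hsph1 and Hspb1) and 1228 genes. DESeq2 and limma-voom also called 0 members, and over all genes they called 76 and 0. Hsph1, Hspb1 and Hsp90aa1 had all 3 combination libraries below the control ones, against 9.71% of genes that did not overlap in either direction. For any difference among the 4 groups, Hsph1 (adjusted p = 0.0226) and Bag3 (adjusted p = 0.0464) were called, 2 of 10 against 22.6% of all genes.

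**Figure D2:**
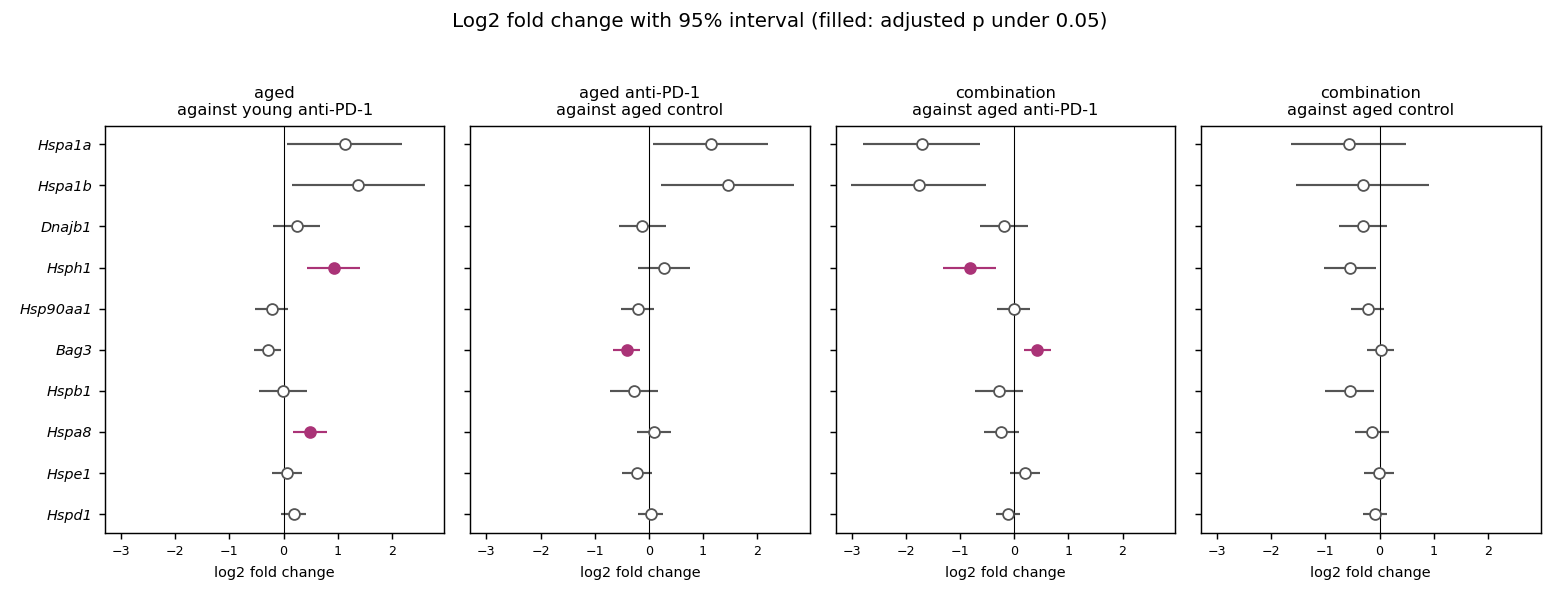
Log2 fold change of each of the 10 genes (horizontal axis) in the 4 comparisons, with bars for the 95% interval; filled points are called at an adjusted p under 0.05. The intervals of Hspa1a and Hspa1b are the widest, and 5 points over the first 3 comparisons are filled, those of Hsph1 (2), Hspa8 (1) and Bag3 (2).

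Hspa1a (ENSMUSG00000091971, mm10 chromosome 17, 34969190 to 34972156, minus strand) and Hspa1b (ENSMUSG00000090877, chromosome 17, 34956436 to 34959238, minus strand) encode the stress-inducible HSP70. Hspa1a stood at 108, 53.1 and 98.2 CPM in the young libraries, at 57.8, 96.7 and 102 in aged control, at 304, 90.3 and 173 in aged anti-PD-1 and at 81.7, 59.6 and 31.5 in the combination. Aged anti-PD-1 libraries 1 and 3 were the highest of all 12, while library 2 lay within the young and control ranges. All 3 combination libraries were below all 3 of anti-PD-1 alone. Hspa1b stood at 93.9, 35.9 and 82.0 CPM in young, at 42.6, 80.2 and 78.1 in control, at 299, 81.9 and 170 in aged anti-PD-1 and at 77.8, 57.4 and 26.5 in the combination. Its order of libraries was close to that of Hspa1a, with the same library highest and the same library lowest.

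The means ± SD (n = 3) of Hspa1a were 86.5 ± 29.4 CPM in young, 85.6 ± 24.3 in control, 189 ± 108 in aged anti-PD-1 and 57.6 ± 25.1 in the combination. For the combination against anti-PD-1 alone, edgeR gave a log2 fold change of -1.71 ± 0.49 SE for Hspa1a (95% interval -2.79 to -0.63, adjusted p = 0.0555) and -1.77 ± 0.56 for Hspa1b (-3.01 to -0.52, adjusted p = 0.0773). The other tools did call them: adjusted p was 0.008 by DESeq2 and 0.0324 by limma-voom for Hspa1a, and 0.0232 and 0.0477 for Hspa1b. Aged anti-PD-1 library 1 carried much of the difference. Without that library, the log2 fold changes were -1.19 (adjusted p = 0.165) and -1.22 (adjusted p = 0.229). Without aged anti-PD-1 library 2 or combination library 1, Hspa1a was called at -2.05 each time (adjusted p = 0.0373 and 0.0469). Against young lungs, the aged anti-PD-1 libraries were higher by 1.13 ± 0.48 log2 units for Hspa1a (0.07 to 2.19, adjusted p = 0.144) and 1.38 ± 0.55 for Hspa1b (0.15 to 2.61, adjusted p = 0.125). Against aged control the differences were 1.14 ± 0.48 (adjusted p = 0.146) and 1.46 ± 0.55 (adjusted p = 0.116). The intervals of both genes in these comparisons lie above 0, with lower bounds near it and upper bounds past 2.

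The 2 genes share sequence, and this bears on how their counts were split. Of all 100-base words in the exons of Hspa1a, 47.1% also occur in Hspa1b and 13.0% in Gm20481, a gene on the opposite strand that overlaps Hspa1a over 564 exon bases. Of the words of Hspa1b, 49.9% occur in Hspa1a. How the authors treated reads that match both genes, or strand, is not given in the sources used here, so the split between the pair is uncertain. Summed before the fit, the pair gave a log2 fold change of 1.25 (adjusted p = 0.131) between aged and young and -1.74 (adjusted p = 0.0622) between the combination and anti-PD-1 alone. Over the 12 libraries their log2 CPM had a Pearson r of 0.987 (permutation p = 1e-05, the smallest that 100000 permutations can give, adjusted p = 0.00065 over 65 pairs of genes) and a Spearman rho of 0.951.

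Hspa8 (ENSMUSG00000015656, chromosome 9, 40800984 to 40810087, plus strand) encodes HSC70, the constitutive HSP70 that folds new proteins, uncoats clathrin vesicles and delivers proteins to lysosomes. It stood at 1105, 1078 and 1124 CPM in young, at 1492, 1424 and 1422 in control, at 1764, 1208 and 1666 in aged anti-PD-1 and at 1380, 1460 and 1099 in the combination. The young libraries lay within a narrow band, and every aged library was above it except library 3 of the combination. Aged anti-PD-1 exceeded young by 0.49 ± 0.15 log2 units (95% interval 0.17 to 0.80, edgeR adjusted p = 0.0399). Leaving out aged anti-PD-1 library 1 or 3, or any 1 young library, ended the call (adjusted p up to 0.136). Between aged anti-PD-1 and control the difference was 0.10 (-0.22 to 0.41, adjusted p = 0.705), and between the combination and anti-PD-1 alone it was -0.24 (-0.55 to 0.08, adjusted p = 0.331). Of the 100-base words of Hspa8, 28.5% occur in other genes, mainly Gm15459 and Gm26825.

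Hsph1 (ENSMUSG00000029657, chromosome 5, 149614287 to 149636376, minus strand) encodes HSP110, a large relative of HSP70 that acts as its exchange factor and helps to dissolve protein aggregates. It stood at 46.5, 49.6 and 37.6 CPM in young, at 69.8, 67.0 and 72.7 in control, at 122, 54.8 and 76.4 in aged anti-PD-1 and at 45.8, 55.8 and 42.0 in the combination. Young and combination libraries covered nearly the same low range, and both aged groups without the interleukin-21 receptor antibody lay above young. Aged anti-PD-1 library 2 was within the range of the combination. Under anti-PD-1, aged lungs had more Hsph1 than young ones, by 0.92 ± 0.22 log2 units (95% interval 0.44 to 1.41, edgeR adjusted p = 0.0164). The call was lost without young library 3 (adjusted p = 0.0755). Without aged anti-PD-1 library 1 the difference was 0.56 and was still called (adjusted p = 0.0394).

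In the combination, Hsph1 was lower than under anti-PD-1 alone, at -0.82 ± 0.23 log2 units (95% interval -1.31 to -0.33, edgeR adjusted p = 0.0398). Without aged anti-PD-1 library 1 this became -0.45 (adjusted p = 0.13), and the call was also lost without aged anti-PD-1 library 3, without any 1 of the combination libraries, and by limma-voom (adjusted p = 0.0512). Against aged control the combination was lower, at -0.55 log2 units (-1.03 to -0.06), with an adjusted p of 0.724 in a comparison where no gene was called. Between aged anti-PD-1 and control the difference was 0.28 (-0.20 to 0.76, adjusted p = 0.441). No 100-base word of Hsph1 occurs in another gene.

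Dnajb1 (ENSMUSG00000005483, chromosome 8, 83608193 to 83612653, plus strand) encodes HSP40, the J-domain partner of the inducible HSP70. It stood at 69.9, 63.7 and 81.6 CPM in young, at 67.5, 116 and 93.5 in control, at 105, 62.7 and 86.5 in aged anti-PD-1 and at 67.9, 85.7 and 69.8 in the combination. All 4 groups overlapped. The log2 fold change between aged and young was 0.24 (-0.20 to 0.68, adjusted p = 0.468), and that between the combination and anti-PD-1 alone was -0.19 (-0.62 to 0.25, adjusted p = 0.6). These intervals exclude a change of Dnajb1 as wide as the fitted ones of Hspa1a and Hspa1b in the same comparisons.

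Bag3 (ENSMUSG00000030847, chromosome 7, 128523616 to 128546981, plus strand) encodes an exchange factor of HSP70 that joins it to small heat shock proteins and to selective autophagy, with a known role in muscle. It stood at 78.2, 72.1 and 92.1 CPM in young, at 92.3, 89.4 and 81.3 in control, at 75.2, 61.3 and 61.9 in aged anti-PD-1 and at 90.2, 94.8 and 81.4 in the combination. The aged anti-PD-1 libraries were below every control and every combination library, and the latter groups had almost the same range. It was lower under anti-PD-1 than under control, at -0.41 ± 0.12 log2 units (95% interval -0.65 to -0.16, edgeR adjusted p = 0.0396) and higher in the combination than under anti-PD-1 alone by 0.42 ± 0.12 log2 units (0.18 to 0.67, adjusted p = 0.0369). The combination and control differed by 0.02 log2 units (-0.23 to 0.27, adjusted p = 0.992). Against young lungs, aged anti-PD-1 was at -0.29 (-0.54 to -0.04, adjusted p = 0.11).

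Both Bag3 calls were near the threshold. The call against control was lost without aged anti-PD-1 library 2 or 3 or control library 1 or 2 (adjusted p up to 0.13), and the call against the combination without aged anti-PD-1 library 2 or 3 or combination library 1 or 2 (adjusted p up to 0.146). With library totals alone as scaling, which moved the median of all genes from -0.02 to 0.09 between aged anti-PD-1 and control and from -0.01 to -0.21 between the combination and anti-PD-1, Bag3 stood at -0.30 (adjusted p = 0.104) and 0.22 (adjusted p = 0.187). That scaling also moved the share of called genes that were higher from 48.9% to 71.5% in the former comparison and from 51.7% to 11.9% in the latter.

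Marker genes of several cell types differed between the same groups. Over all genes tested, edgeR called 10.9% between aged anti-PD-1 and control and 9.02% between the combination and anti-PD-1 alone. Against control, edgeR called 5 of 5 mesothelial markers and 4 of 6 neutrophil markers lower under anti-PD-1 in aged lungs and 4 of 7 blood endothelial markers higher. Between the combination and anti-PD-1 alone, 4 of 6 neutrophil, 4 of 5 erythroid and 7 of 12 mitochondrially encoded genes were called higher in the combination and 4 of 7 blood endothelial markers lower. None of these lists had a call the other way in these comparisons. The smooth muscle and pericyte list was mixed: of 7 markers, 1 was called higher and 2 lower under anti-PD-1 than under control, and 2 higher and 1 lower in the combination.

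Summed levels are given for aged anti-PD-1, control and combination in that order. They ran from 83.1 to 118, from 207 to 348 and from 122 to 159.8 CPM for mesothelial markers and from 648 to 921, from 1589 to 2413 and from 1464 to 1985 for neutrophils. Blood endothelial sums ran from 2154 to 2547, from 1407 to 2158 and from 1432 to 1791 CPM, so aged anti-PD-1 was wholly above the combination and overlapped control. Erythroid sums ran from 9962 to 13130, from 12720 to 20690 and from 19020 to 46830 CPM, and mitochondrially encoded sums from 67040 to 107400, from 65350 to 98560 and from 112900 to 159500.

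Between aged and young under anti-PD-1, the comparison in which Hsph1 and Hspa8 were called, 8 of 8 type 2 alveolar, 6 of 7 type 1 alveolar and 5 of 5 mesothelial markers were called lower in aged lungs and 5 of 6 B cell markers higher. Of all genes tested, 15.3% were called in this comparison. In the young libraries the sums ran from 22730 to 28040 CPM for type 2 alveolar markers, against 14940 to 16450 in aged anti-PD-1. For B cell markers they ran from 184.5 to 228 in young and from 366 to 404 in aged anti-PD-1. No marker in these lists was at 0 in every library, and the part of these lists in the differences of Bag3, Hsph1, Hspa8 and the HSP70 pair was not tested.

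Genes of the circadian clock also set aged anti-PD-1 apart. The shares called over all genes were 15.3%, 10.9% and 9.02% in the comparisons that follow, in that order. Of 16 clock and output genes, edgeR called 4 higher and 3 lower in aged than in young, 1 higher and 3 lower under anti-PD-1 than under control, and 1 higher and 4 lower in the combination than under anti-PD-1 alone. Dbp, a clock output factor named here after its values were seen, stood at 18.9, 95.98 and 50.3 CPM in aged anti-PD-1 and between 14.8 and 27.0 in the other 9 libraries. Library 1 of that group, the highest in Hspa1a, was thus its lowest in Dbp and lay within the range of the other groups. The time of day at which tissue was taken is not given in the sources used here, and its part in the members' levels was not tested.

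Hsp90aa1 (ENSMUSG00000021270, chromosome 12, 110690605 to 110702728, minus strand) encodes the inducible form of cytosolic HSP90, which holds kinases and steroid receptors ready to act. It stood at 527, 616 and 649.8 CPM in young, at 582, 589 and 615 in control, at 652, 433 and 458 in aged anti-PD-1 and at 521, 504 and 508 in the combination. Aged anti-PD-1 libraries 2 and 3 were the lowest of the 12 and library 1 was the highest, and the SD within this group was 119.8 CPM, against 17.2 in control. No comparison was called. The log2 fold change was -0.22 between aged and young (-0.52 to 0.09, adjusted p = 0.339), -0.21 between aged anti-PD-1 and control (-0.51 to 0.09, adjusted p = 0.35) and -0.01 between the combination and anti-PD-1 alone (-0.31 to 0.30, adjusted p = 0.976). Without aged anti-PD-1 library 1 the difference from young became -0.42 and was called (adjusted p = 0.0351). Of the 100-base words of Hsp90aa1, 38.0% occur in other genes, mainly Gm12346 (31.6%).

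Hspb1 (ENSMUSG00000004951, chromosome 5, 135887919 to 135889563, plus strand) encodes HSP25, the mouse form of human HSP27, a small heat shock protein that also guards actin filaments. It stood at 214, 178 and 218 CPM in young, at 247, 225 and 261 in control, at 267, 156 and 182 in aged anti-PD-1 and at 186, 198 and 116 in the combination. The lowest library was number 3 of the combination, and all 3 of that group lay below all of control. That difference was -0.55 ± 0.21 (-1.003 to -0.11, adjusted p = 0.648). In the other comparisons the log2 fold changes were -0.01 between aged and young (-0.46 to 0.44), -0.28 between aged anti-PD-1 and control (-0.72 to 0.17) and -0.28 between the combination and anti-PD-1 alone (-0.72 to 0.17). Of its 100-base words, 44.0% also occur in the pseudogene Hsp25-ps1.

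Hspe1 (ENSMUSG00000073676, chromosome 1, 55088132 to 55091307, plus strand) and Hspd1 (ENSMUSG00000025980, chromosome 1, 55077835 to 55088243, minus strand) encode HSP10 and HSP60, the lid and the barrel of the mitochondrial chaperonin. Hspe1 stood at 76.1, 74.8 and 77.3 CPM in young, at 96.8, 94.7 and 85.0 in control, at 72.1, 73.2 and 92.6 in aged anti-PD-1 and at 94.2, 105 and 74.6 in the combination. Hspd1 stood at 88.5, 92.9 and 87.9 CPM in young, at 93.9, 109 and 96.5 in control, at 109, 88.0 and 109 in aged anti-PD-1 and at 97.8, 99.0 and 86.2 in the combination. Neither gene's groups separated in the 4 comparisons, and none was called. As their first exons overlap on opposite strands and the strand setting is not given, some reads may be shared. Of the 100-base words of Hspd1, 23.9% occur in other genes, mainly Hspd1-ps3 (22.4%), and of those of Hspe1, 11.0%. Of the 10 members Hspd1 had the narrowest 95% intervals, which were -0.04 to 0.41 between aged and young, -0.19 to 0.26 between aged anti-PD-1 and control and -0.34 to 0.11 between the combination and anti-PD-1 alone. Those of Hspe1 were -0.22 to 0.33, -0.49 to 0.06 and -0.07 to 0.48.

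The 2 genes share a promoter region and their products 1 complex. No relation between their levels was shown over the 12 libraries (Pearson r = 0.452, permutation p = 0.139, adjusted p = 0.282). Of the 45 pairs of members, 5 passed adjustment over 65 relations by Pearson's r and 2 of them by Spearman's rho. The permutations behind these p-values ignored the groups, so differences between groups also enter them. Besides Hspa1a with Hspa1b, Hsph1 and Hspa8 passed by both measures (r = 0.859, permutation p = 0.00027, adjusted p = 0.00877; rho = 0.825, permutation p = 0.00182, adjusted p = 0.0394). The r of Hsph1 with Hspa8 was 0.803 without the 2 libraries farthest from the median and 0.762 for deviations from the group means. Hspa8 with Hspd1 gave r = 0.855 (permutation p = 0.00068, adjusted p = 0.0147) and 0.861 without the 2 farthest libraries, but its rho had an adjusted p of 0.0853. The deviations from group means had an r above 0 in 44 of the 45 pairs, from -0.26 (Hsp90aa1 with Hspe1) to 0.995 (Hspa1a with Hspa1b). These pairs share genes and libraries and are not independent. The share above 0 among pairs of other genes was not computed, so this count is not shown to be particular to the members.

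A mean of the 10 standardised log2 levels describes each library. It was 1.19, -0.84 and 0.37 in the 3 aged anti-PD-1 libraries, which thus included both the highest of the 12 and the second lowest. The lowest was combination library 3 at -1.11, and the others of that group were at -0.03 and 0.21. The control libraries lay together at 0.19, 0.70 and 0.44, and the young ones at -0.36, -0.65 and -0.10, so control and young did not overlap. Aged anti-PD-1 library 1 was the highest of the 12 in 6 of the 10 genes and the lowest in 1 (Hspe1), and combination library 3 was the lowest in 4.

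**Figure D3:**
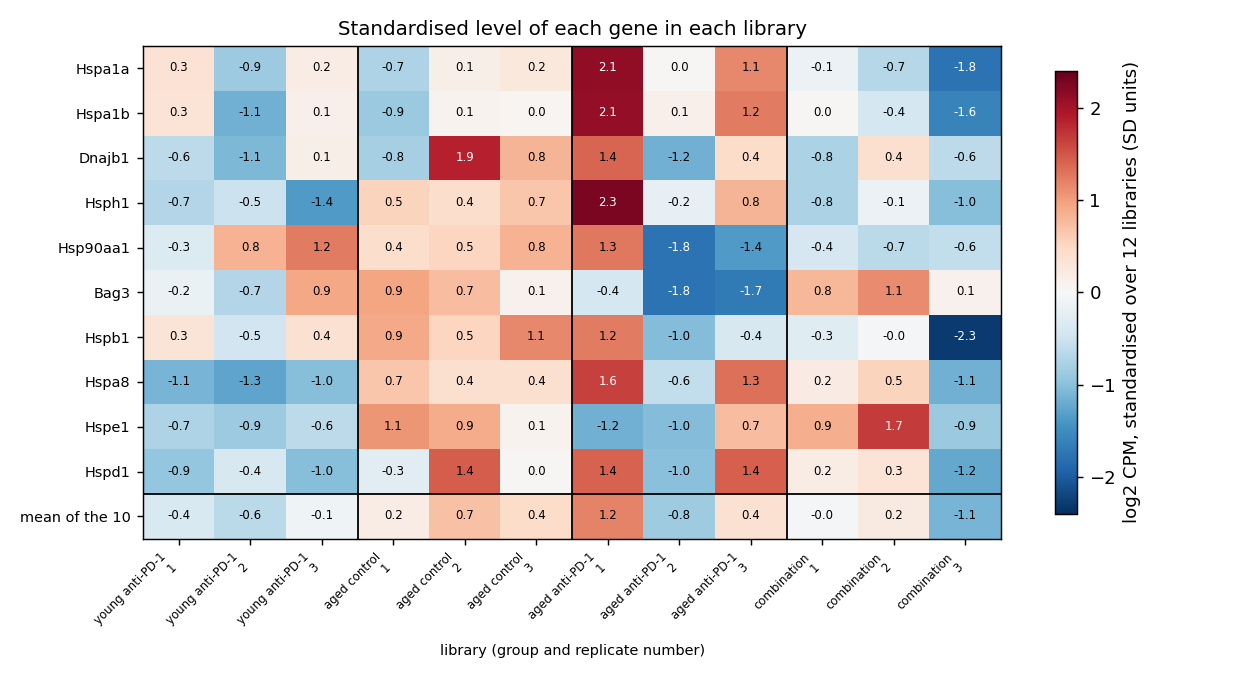
Level of each of the 10 genes and their mean (vertical axis) in each of the 12 libraries (horizontal axis), as standard deviations from the gene's mean log2 CPM. Aged anti-PD-1 library 1 has the highest mean, 1.19, and combination library 3 the lowest, -1.11.

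Where a call rests on 1 library was followed by refitting the data with each library left out. Of the 5 calls among members, none was kept in all 6 fits that left out a library of its own 2 groups. The call of Hsph1 between aged and young was kept in 5 of 6. The signs of the differences of Hsph1, Hspa8, Bag3, Hspa1a and Hspa1b in the plotted comparisons were kept in all of these fits.

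**Figure D4:**
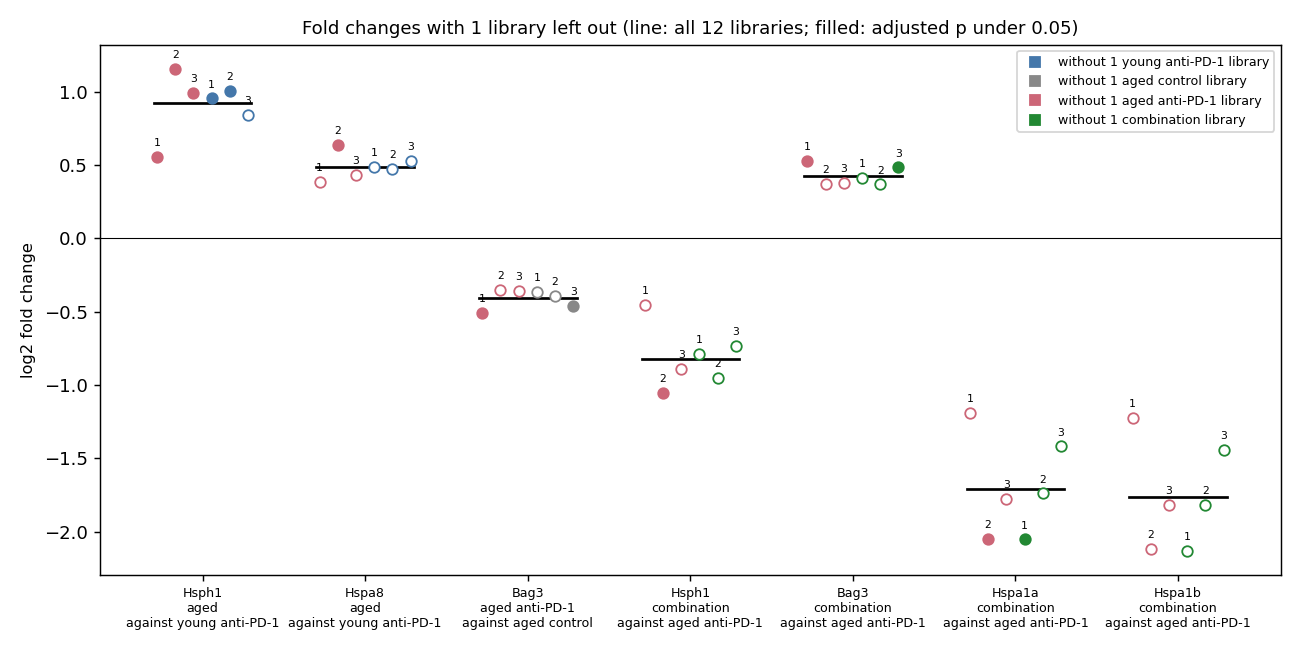
Log2 fold changes of Hsph1 and Hspa8 (aged against young), Bag3 (anti-PD-1 against control) and Hsph1, Bag3, Hspa1a and Hspa1b (combination against anti-PD-1 alone), each refitted with 1 library left out; filled points are called and the line marks the fit of all 12 libraries. Leaving out aged anti-PD-1 library 1 brings Hspa1a from -1.71 to -1.19 and Hsph1 from -0.82 to -0.45 in the combination.

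The other chaperone genes were read from 9 lists. Over all genes tested, edgeR called 15.3% between aged and young and 10.9% between aged anti-PD-1 and control. It called 9.02% between the combination and anti-PD-1 alone. The count called in each list is to be read against these shares. Of the heat shock factors and their inhibitor Hsbp1, 4 were tested and edgeR called 0 in every comparison. At an unadjusted p under 0.05 there was 1 between aged and young and 1 between aged anti-PD-1 and control, while DESeq2 called 1 in the latter and limma-voom 0. Hsf1 itself had group means of 32.2 CPM in young, 32.4 in control, 29.7 in aged anti-PD-1 and 31.4 in the combination. Its transcript level says nothing of its activity, which is set on the protein.

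Among 8 other HSP70 and HSP110 genes, 1 was higher in aged than in young, 2 were higher under anti-PD-1 than under control and the same 2, Hspa12b and Hspa12a, were lower in the combination than under anti-PD-1 alone. Hspa12b, the 1 called between aged and young and an atypical HSP70 of endothelial cells, had the same order of groups as Hspa1b: its means were 30.7 CPM in young, 25.9 in control, 49.2 in aged anti-PD-1 and 24.5 in the combination. It rose by 0.93 ± 0.20 log2 units under anti-PD-1 against control (edgeR adjusted p = 0.0144) and fell by 1.01 ± 0.20 log2 units in the combination (adjusted p = 0.0118). These calls were each lost without 1 library, control library 2 (adjusted p = 0.0572) and combination library 2 (adjusted p = 0.0613). The endothelial marker sums given above moved in the same direction, and their part in Hspa12b was not tested. Hspa4, a constitutive HSP110 relative, was not called in any comparison (-0.22 between aged and young, adjusted p = 0.147).

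Of 11 other J-domain genes, 1 was higher and 1 lower in aged than in young, 1 was lower under anti-PD-1 than under control, and 1 was higher and 1 lower in the combination. Dnaja1, a main partner of HSC70, stood at 189, 188 and 207 CPM in young, at 211, 234 and 246 in control, at 357, 220.4 and 302 in aged anti-PD-1 and at 217, 211 and 178 in the combination. As with Hsph1, aged anti-PD-1 library 1 was the highest and the combination lay near young. Dnaja1 rose by 0.59 log2 units between young and aged (edgeR adjusted p = 0.0173) and fell by 0.54 log2 units in the combination (adjusted p = 0.0378). The former call was lost without aged anti-PD-1 library 1 or 3 or young library 1 or 2 (adjusted p up to 0.0708), and the latter in each fit that left out a library of its groups (adjusted p up to 0.155) except the one without aged anti-PD-1 library 2. Dnajb6, which keeps proteins from forming amyloid, followed the order of Bag3: it was lower, at -0.32 log2 units under anti-PD-1 than under control (adjusted p = 0.032) and higher by 0.35 log2 units in the combination (adjusted p = 0.026). Each Dnajb6 call was lost in 5 of the 6 fits that left out a library of its groups (adjusted p up to 0.123 and 0.101), the exceptions being those without control library 1 and combination library 3.

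Of 11 other HSP90 genes and HSP90 partners, 2 were called higher in aged than in young, 1 higher under anti-PD-1 than under control and 2 lower in the combination. Fkbp5, a cochaperone of steroid receptors that glucocorticoids induce, stood at 16.02, 19.6 and 12.5 CPM in young, at 23.9, 37.4 and 26.3 in control, at 43.7, 39.2 and 46.4 in aged anti-PD-1 and at 22.5, 25.7 and 22.6 in the combination. Aged anti-PD-1 was above every other group without overlap, but the difference of Fkbp5 from control was not called by edgeR. Fkbp5 was 2.69-fold higher in aged than in young (log2 fold change 1.43 ± 0.18, edgeR adjusted p = 0.000442) and 1.82-fold lower in the combination (adjusted p = 0.0119), and both calls held in all fits that left out 1 library. Chordc1, an HSP90 cochaperone with zinc-binding domains, was higher in aged than in young by 0.59 log2 units (adjusted p = 0.0157) and lower in the combination, at -0.61 log2 units (adjusted p = 0.0225). The Chordc1 calls were lost without aged anti-PD-1 library 1 or 3, without young library 3 for the former, and without combination library 2 or 3 for the latter (adjusted p up to 0.0695 and 0.104). Hsp90ab1, the constitutive HSP90, had means of 945, 1009, 933 and 991 CPM in young, control, aged anti-PD-1 and combination and was not called.

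Of 5 other small heat shock proteins, 3 (Hspb8, Cryab and Hspb2) were lower in aged than in young, 1 (Hspb8) was lower under anti-PD-1 than under control and higher in the combination, and none was called the other way. Hspb8, which forms a complex with BAG3, had means of 116, 125, 70.7 and 104 CPM in young, control, aged anti-PD-1 and combination. It was lower in aged than in young, at -0.71 ± 0.12 log2 units (edgeR adjusted p = 0.00217) and lower under anti-PD-1 than under control, at -0.82 ± 0.12 log2 units (adjusted p = 0.00407), and both calls held in all 6 fits that left out 1 library. Its rise of 0.55 in the combination (adjusted p = 0.0153) was lost without aged anti-PD-1 library 3 or combination library 2 (adjusted p up to 0.0776). Cryab, a lens and muscle small heat shock protein, was lower in aged than in young, at -0.73 ± 0.17 log2 units (adjusted p = 0.0121), a call lost without library 3 of either group (adjusted p up to 0.065). Of 7 smooth muscle and pericyte markers, 1 was called higher and 2 lower in aged than in young, and their part was not tested.

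Of 8 BAG family and other exchange factors, Bag1 and Bag2 were lower in aged than in young and lower under anti-PD-1 than under control, where Bag4 was higher, and Bag1 was higher in the combination. Bag1, which ties HSP70 to the proteasome, had means of 339.7, 332, 214 and 308 CPM in young, control, aged anti-PD-1 and combination. It was lower in aged than in young, at -0.66 ± 0.15 log2 units (edgeR adjusted p = 0.00927) and lower under anti-PD-1 than under control, at -0.63 ± 0.15 log2 units (adjusted p = 0.0188), calls lost only without young library 3 (adjusted p = 0.0542) and aged anti-PD-1 library 3 (adjusted p = 0.0684) in turn. In the combination Bag1 was higher by 0.52 log2 units (adjusted p = 0.04), a call kept in 1 of 6 such fits, the one without combination library 1 (adjusted p up to 0.172).

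In mitochondria, 3 of 11 other chaperones and proteases (Grpel2, Grpel1 and Dnajc19) were lower in aged than in young, and Hspa9 was higher in the combination. Grpel2, the stress form of the exchange factor of mitochondrial HSP70, was lower in aged lungs, at -0.59 ± 0.13 log2 units (edgeR adjusted p = 0.00829) and was called in all 6 fits that left out 1 library. Between aged anti-PD-1 and control edgeR called 0 of the 11, with 2 at an unadjusted p under 0.05, 2 called by DESeq2 and 0 by limma-voom. Of 14 TRiC chaperonin and prefoldin genes, which fold actin and tubulin, 2 prefoldins (Pfdn1 and Pfdn4) were lower in aged than in young and higher in the combination, calls kept in 0 to 2 of the 6 fits that left out 1 library (adjusted p up to 0.174). Between aged anti-PD-1 and control edgeR called 0 of these 14, with 4 at an unadjusted p under 0.05, 2 by DESeq2 and 0 by limma-voom. No TRiC subunit was called by edgeR in the 4 comparisons.

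Of 14 chaperones of the endoplasmic reticulum, which respond to a separate stress pathway, edgeR called 0 between aged and young (2 at an unadjusted p under 0.05, 0 by DESeq2 and 0 by limma-voom). Pdia4, a disulfide isomerase, was higher under anti-PD-1 than under control, and Pdia4 and Hyou1, the HSP110 of that compartment, were lower in the combination. The Pdia4 calls were kept in 1 and 2 of the 6 fits that left out 1 library (adjusted p up to 0.119). Hyou1 fell by 0.50 ± 0.12 log2 units (edgeR adjusted p = 0.0239), a call lost without aged anti-PD-1 library 1 or combination library 2 (adjusted p up to 0.0982). Between the combination and control, edgeR called 0 of all 18556 genes tested, and so 0 in every one of these lists.

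**Figure D5:**
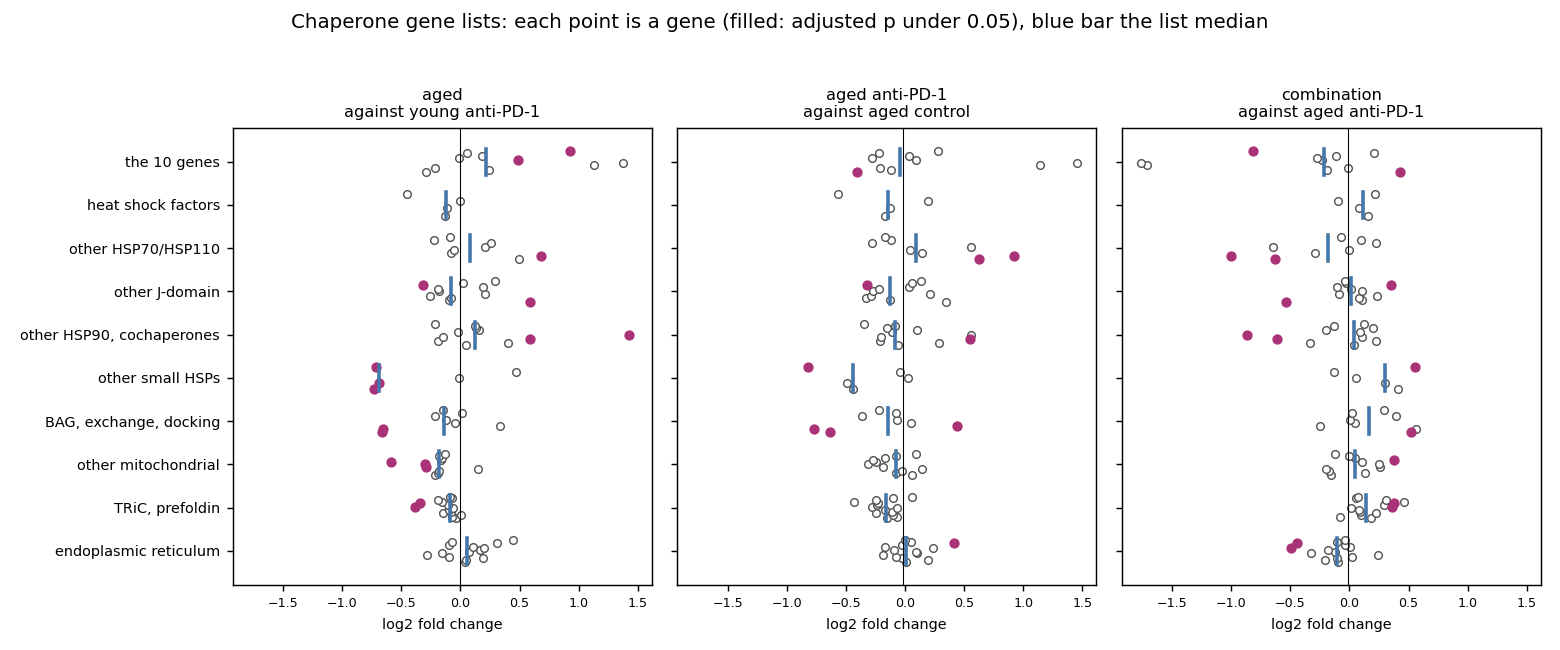
Log2 fold change of every tested gene of the 10 chaperone gene lists (rows) in 3 comparisons (panels); filled points are called, blue bars are list medians and the thin vertical line is the median of all genes. The small heat shock proteins have a median of -0.69 between aged and young, against -0.01 for all genes.

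Cirbp and Rbm3 encode RNA-binding proteins made when cells cool, the opposite trigger to heat. Cirbp stood at 128, 125 and 167 CPM in young, at 164, 140.3 and 131 in control, at 81.0, 131 and 87.3 in aged anti-PD-1 and at 146, 155 and 151 in the combination. The aged anti-PD-1 libraries highest in Hspa1a, numbers 1 and 3, were the lowest 2 of the 12 in Cirbp. Cirbp was higher in the combination than under anti-PD-1 alone by 0.60 ± 0.17 log2 units (edgeR adjusted p = 0.0409), a call kept in 1 of 6 fits that left out a library, the one without aged anti-PD-1 library 2 (adjusted p up to 0.148). Over the 12 libraries, Cirbp and Hspa1a had a Pearson r of -0.773 (permutation p = 0.00356, adjusted p = 0.0463). The r was -0.646 without the 2 libraries farthest from the median and -0.526 for deviations from group means. Their Spearman rho had an adjusted p of 0.335. The permutations ignored the groups, so such a p also reflects differences between groups. For Bag3 and Cirbp the rho was 0.86 (adjusted p = 0.0205), but for deviations from group means r was 0.119, so this relation lay between groups. Rbm3 was not called in any comparison, with 0.27 ± 0.13 in the combination against anti-PD-1 alone (adjusted p = 0.184). Hspa1a and Rbm3 had a Pearson r of -0.342 (permutation p = 0.279, adjusted p = 0.457), and 0.342 without the 2 farthest libraries. Aged anti-PD-1 library 3 stood at 264 CPM in Rbm3, within the control range of 229 to 302. The part of temperature in the levels of these genes was not tested.

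Among 16398 genes compared over the 12 libraries, those whose log2 level was most like the mean of the 10 members were Hspa5 (r = 0.900), Tubb2a (0.887) and Calr (0.880). Hspa5 and Calr encode BiP and calreticulin, chaperones of the endoplasmic reticulum, and Tubb2a a beta tubulin. They were followed by 4930524O07Rik, Asb2, Gm15459, Btbd10, Gm26825, Gm15542 and Pprc1, with r between 0.812 and 0.844. Gm15459 and Gm26825 each share 26.3% of the words of Hspa8, so their reads may be those of Hspa8. The genes least like the mean were Zc3h6 (r = -0.938), Nek7 (-0.857), Gm12418, 9130230N09Rik and Ccdc89. Without aged anti-PD-1 library 1, r was 0.853 for Hspa5 and -0.920 for Zc3h6. The genes named are the ends of a ranking of 16398 genes over only 12 libraries. In so long a ranking some unrelated genes also reach a high r. These are descriptions over libraries that share groups and depth, and no p was computed.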

How the data were processed

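Poly(A) RNA of whole lung was sequenced in 12 directional libraries (labels' protocols). The authors deposited a table of raw counts, which is used here. Per the submitters' processing notes, bcl2fastq 1.8.4, Trimmomatic, HISAT2 and featureCounts 1.6.3 were used with build mm10; their options, the strand setting and the annotation release are not given in the sources used here. From the counts, genes were filtered (filterByExpr, minimum count 10), scaled by TMM and fitted with edgeR 4.0.16 (robust quasi-likelihood, R 4.3.3) over all 4 groups, with Benjamini-Hochberg adjustment; intervals use the t quantile of the fit's degrees of freedom. Exon lengths are from GENCODE M21. Correlations used 100000 permutations over all 12 libraries without regard to group (scipy 1.17.1). Depth was 16021877 to 22058620 counts per library. The fits were tested on simulated data.

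The members and lists were chosen with earlier results of these data known. All members are named; in other lists, up to 4 called genes with the smallest adjusted p and up to 2 uncalled with the highest mean, plus Cirbp and Rbm3. Alternatives were DESeq2 1.42.0, limma-voom (limma 3.58.1), other scalings and filters, a replicate block, only the groups compared, the summed HSP70 pair and each library left out.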

Additional observations from a re-analysis of the deposited data

How the results depend on the processing

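Over the 10 members, their comparisons and all alternatives, 850 values were recomputed. Of these, 761 kept their side of the threshold and, between 2 groups, their direction. Another 43 lost a call, 19 gained one and 27 changed sign. Only results called with all 12 libraries could lose a call. Between aged and young, calls were lost in 3 (Hsph1) and 6 (Hspa8) of 16 alternatives. Against control the Bag3 call was lost in 7 of 16. In the combination against anti-PD-1 alone, calls were lost in 9 (Hsph1) and 5 (Bag3) of 16. For any difference, they were lost in 3 (Hsph1) and 10 (Bag3) of 21. Members called between aged and young were 1 with no filter (2475 genes called) and with the replicate block (2493 genes). They were also 1 with only the groups compared (3742 genes). Between aged anti-PD-1 and control they were 0 with library totals (1959 genes), the replicate block (1702) and only the groups compared (881). Between the combination and anti-PD-1 alone, members were 4 by DESeq2 (2595 genes) and with library totals (3038 genes). They were 1 with no filter (1598 genes), the replicate block (1455) and only the groups compared (1444). Between the combination and control, genes were 76 by DESeq2 and 11 with no filter. For any difference, members were 5 by DESeq2 (5809 genes) and 4 with library totals (5149 genes). They were 1 with scaling without immunoglobulin, haemoglobin and mitochondrial genes (4150 genes), no filter (4122) and the replicate block (3652). With 1 library left out, genes called ran from 1160 to 2237, 607 to 1995, 260 to 1439, 0 to 13 and 2320 to 5213 in the order of the comparisons, and members from 0 to 2, 0 to 1, 0 to 2, 0 to 0 and 0 to 4.

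None of the log2 fold changes that changed sign was called with all 12 libraries. They were Hspb1 between aged and young (0.029 with library totals, 0.015 with the scaling that leaves genes out), Hsp90aa1 between the combination and anti-PD-1 (0.00135 by DESeq2, 0.00138 by its size factors in edgeR, 0.018 by limma-voom), and between the combination and control Bag3 (-0.074 with library totals) and Hspe1 (0.00422 with the scaling that leaves genes out, 0.00198 with only the groups compared). With 1 library left out the ranges were -0.27 to 0.14 (Hspb1) and -0.067 to 0.12 (Hspe1) between aged and young; -0.30 to 0.074 (Dnajb1), -0.091 to 0.51 (Hsph1), -0.0089 to 0.25 (Hspa8) and -0.019 to 0.13 (Hspd1) between aged anti-PD-1 and control. They were -0.12 to 0.20 (Hsp90aa1) between the combination and anti-PD-1, and -0.67 to 0.015 (Hspa1b), -0.034 to 0.077 (Bag3) and -0.12 to 0.11 (Hspe1) between the combination and control. The cause of these changes was not tested. Replicate numbers do not pair the libraries: of 18 pairs with the same number, 2 had deviations that correlated above 0.1 (median r -0.01). With the replicate block, adjusted p was 0.0594 for Hspa8 between aged and young, 0.0532 for Bag3 against control and 0.0566 for Hsph1 in the combination.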

Other observations

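Genes of other stress programmes were read in the same libraries. Among all genes tested, edgeR called 15.3% between aged and young and 10.9% between aged anti-PD-1 and control. It called 9.02% between the combination and anti-PD-1 alone. Of 8 oxidative and metal stress genes, edgeR called 4 lower under anti-PD-1 than under control in aged lungs and 4 higher in the combination than under anti-PD-1 alone, with none the other way. Mt1 and Mt2 belong to a separate list of 10 glucocorticoid targets and encode metallothioneins, which bind zinc and copper. Of these 10, edgeR called 5 higher and 1 lower in aged than in young and 3 lower under anti-PD-1 than under control. In the combination against anti-PD-1 alone it called 2 higher and 2 lower. Mt2 had means of 98.0 CPM in young, 235 in aged control, 62.0 in aged anti-PD-1 and 233 in the combination. Its log2 fold change was -1.93 ± 0.19 under anti-PD-1 against control (edgeR adjusted p = 0.00045) and 1.91 ± 0.19 in the combination against anti-PD-1 alone (adjusted p = 0.000471). Mt1 was lower by -1.22 ± 0.23 (adjusted p = 0.00802) and then higher by 1.22 ± 0.23 (adjusted p = 0.00987). All 4 of these calls held in every fit that left out 1 library of the groups compared. Of 14 immediate early genes, Fosl1, a partner of JUN, was lower under anti-PD-1 than under control by -2.42 ± 0.30 (adjusted p = 0.00242) and was the 1 gene of that list called there. Aged anti-PD-1 had the lowest of the 4 group means in Mt2, as in Bag3, and the highest in Hspa1a.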
